A study of Triticum aestivum with 8 samples.

Results

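The distal part of the long arm of wheat chromosome 4A, called distal 4AL here, was taken as every accessible chromatin region (ACR) listed on 4A with a start at or beyond 600 Mb. It held 6859 of the 420451 ACRs in 4 lists, with 1786 in the list of DAP5, 1526 in that of DAP9, 1670 in that of DAP15 and 1877 in that of DAP20. Below, 4 values in a row with no stage named belong to these lists in this order. The stretch ran for 144.5 Mb, up to the largest 4A coordinate in any list. ACRs of the 4 lists that overlapped by at least 1 bp were merged into loci, which gave 3054 loci in distal 4AL out of 180461 on all 21 chromosomes. The ACRs nearest to the 600 Mb limit ended at 599898583, 599899807, 599929077 and 599913466 bp outside it, and those just inside it started at 600460470, 600461497, 600461614 and 600461584 bp.

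The grain came from bread wheat, Triticum aestivum, of the cultivar AK58, grown in a greenhouse. ATAC-seq was done on endosperm, the starch-storing tissue, at 5 and 9 days after pollination (DAP5 and DAP9) and on whole seed at 15 and 20 days (DAP15 and DAP20), each stage with 2 sample records, and with no genetic or chemical treatment. The study's methods count the days from fertilization. The endosperm was dissected free of the embryo, so the step from DAP9 to DAP15 changed the tissue as well as the stage, and the effects of both cannot be told apart. Each stage had 1 list, attached to the record of replicate 1, and no list per replicate. No difference between stages could therefore be set against replicate error, and the read depth behind the lists is unknown. The lists held coordinates only, so the tissue labels could not be checked against marker genes. The genome build is not given in the sources used here, and all positions are in the coordinates of the authors' lists.

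In ATAC-seq the transposase Tn5 inserts adapters into DNA that is not packed into nucleosomes, and a high number of insertions marks open chromatin, where promoters, enhancers and other regulatory elements are usually found. In large cereal genomes, genes and open chromatin are sparse around the centromere and dense toward the chromosome ends. Chromosome 4A departs from this simple plan: during wheat evolution its long arm was rearranged by inversions and took up segments translocated from the long arm of 5A and the short arm of 7B. The 7B segment brought in Wx-B1, a gene for the granule-bound starch synthase that makes amylose in the endosperm. The positions of genes and of the translocation borders in these coordinates were not analysed here. The rest of 4A and the last 145 Mb of 5A and of 7A served as yardsticks.

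Distal 4AL was denser in ACRs than the rest of its chromosome at every stage and sparser than the end of 5A. The density was 12.4, 10.6, 11.6 and 13.0 ACRs per Mb at the 4 stages. The rest of 4A held 5.04, 5.17, 5.58 and 4.83 ACRs per Mb. The end of 5A held 18.6, 16.0, 16.9 and 18.9 ACRs per Mb, and the end of 7A held 12.1, 9.58, 10.4 and 11.5. Distal 4AL and the end of 7A were thus close in density, while the end of 5A stood above both in all 4 lists. Over all 21 chromosomes the density was 7.74, 7.23, 7.51 and 7.42 ACRs per Mb.

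As a log2 ratio averaged over the 4 lists, the density of distal 4AL exceeded that of the rest of 4A by 1.20 ± 0.19 (SD, n = 4 lists, higher in 4 of 4), which is 2.30-fold. Against the end of 5A the log2 ratio was -0.57 ± 0.03 (SD, n = 4, lower in 4 of 4). Against the end of 7A it was 0.13 ± 0.06 (SD, n = 4, higher in 4 of 4), but this sign did not hold: with the last 120 Mb of 7A as the yardstick the mean was -0.02, and 3 lists were higher and 1 lower. The exact two-sided sign-flip permutation test over the 4 lists gave p = 0.125 for each of these 3 ratios (0.1875 after Benjamini-Hochberg adjustment over the 6 tests of density and width). With 4 lists, 0.125 is the smallest p this test can give, so it could not pass 0.05, and the lists are different stages and not replicates.

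The stretch took a slightly different share of each list. In stage order it held 1.64% of all ACRs (1.57 to 1.72%, Wilson 95% interval), 1.50% (1.43 to 1.58%), 1.58% (1.51 to 1.66%) and 1.80% (1.72 to 1.88%). These intervals cover counting error only, and neighbouring ACRs are not independent. The DAP20 interval lay above those of DAP9 and DAP15, and above that of DAP5 by less than the rounding shows. Against the last 145 Mb of every chromosome, the end of 4A ranked in the lower part of the 21, at place 18 from the densest at DAP5 and DAP9, place 17 at DAP15 and place 15 at DAP20. In distal 4AL the median distance from an ACR to the next was 9.94, 14.6, 11.6 and 11.3 kb, and in the rest of 4A it was 30.2, 30.6, 23.9 and 42.5 kb.

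**Figure D1:**
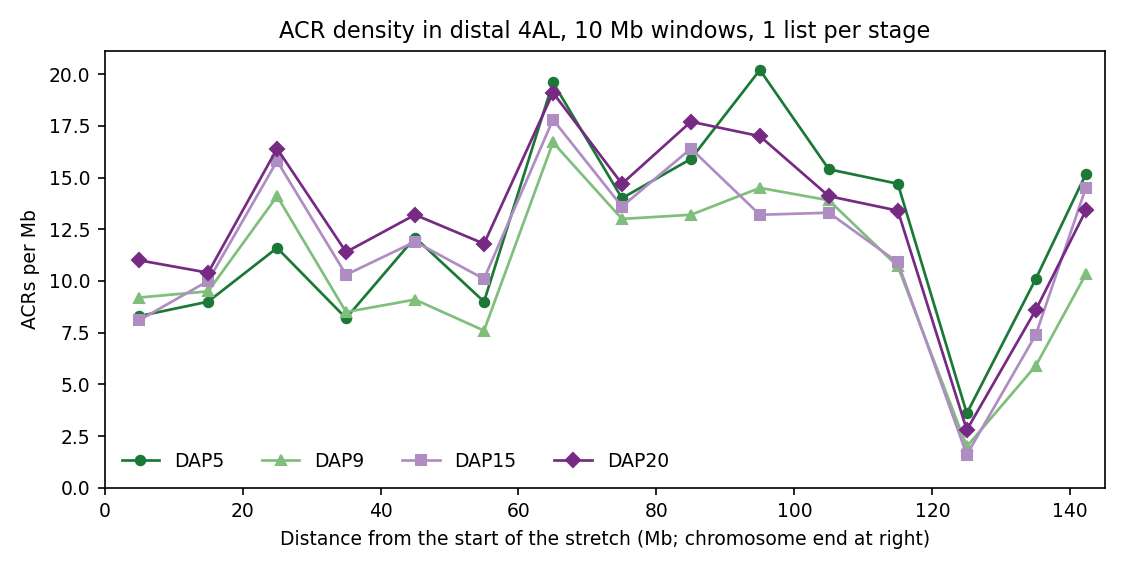
ACRs per Mb (vertical axis) in consecutive 10 Mb windows of distal 4AL, against the distance in Mb from its start at 600 Mb, with 1 line per stage and the chromosome end at the right. The window that starts 60 Mb in reaches 19.6 ACRs per Mb at DAP5, and the one that starts 120 Mb in drops to between 1.6 and 3.6 in the 4 lists.

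Along distal 4AL, the density did not climb steadily to the end but formed a broad crest with a deep trough behind it. The first window, 600 to 610 Mb, held 83, 92, 81 and 110 ACRs. The windows from 660 to 710 Mb were the crest, with 13.0 to 20.2 ACRs per Mb in every list. A single window before it, 620 to 630 Mb, held 11.6, 14.1, 15.8 and 16.4 ACRs per Mb, and its mean of 14.475 was above those of the crest windows 670 to 680 Mb (13.825) and 700 to 710 Mb (14.175). By the mean of the 4 lists the densest window was 660 to 670 Mb, with 196, 167, 178 and 191 ACRs and 333 loci. The highest single value was at DAP5 in the window from 690 to 700 Mb, with 202 ACRs, against 145, 132 and 170 at the 3 later stages. In these windows the maximum was at 690 to 700 Mb for DAP5, with 202 against 196 ACRs at 660 to 670 Mb. For the other 3 lists it was at 660 to 670 Mb. This difference depended on the window edges. In 10 Mb windows counted inward from the chromosome end, DAP5, DAP9 and DAP20 all peaked at 50 to 60 Mb, with 220, 160 and 199 ACRs. DAP15 had 171 there and 172 at 60 to 70 Mb.

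The sparsest window was 720 to 730 Mb. It held 36, 20, 16 and 28 ACRs, which merged into 59 loci. All 4 lists were low there, and no window of distal 4AL was lower in any of them. Beyond it the window from 730 to 740 Mb held 101, 59, 74 and 86 ACRs, and the last 4.55 Mb held 69, 47, 66 and 61, or 15.2, 10.3, 14.5 and 13.4 ACRs per Mb. The window before the trough, 710 to 720 Mb, had 14.7, 10.7, 10.9 and 13.4 ACRs per Mb, so the terminal stretch was close to it in 3 lists and denser at DAP15. At the end of 5A no window held fewer than 10.8 ACRs per Mb in any list. The end of 7A did have a sparse window, its innermost one, with 4.0, 3.9, 4.1 and 2.5 ACRs per Mb, of which the DAP20 value was below the 2.8 of the trough on 4A.

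Counted from the last ACR of each chromosome inward, the trough of 4A stood out by its depth. The zone from 10 to 20 Mb from the end held 22, 13, 9 and 20 ACRs, a mean of 1.6 ACRs per Mb. This was the lowest of the 21 chromosomes, whose median was 20 ACRs per Mb in that zone. A dip behind a denser tip was not particular to 4A. The end of 7A had a shallower one at 20 to 30 Mb, with 7.1, 4.7, 4.8 and 6.2 ACRs per Mb. Its mean of 5.7 was the lowest of the 21 in that zone, where 4A had 7.775. The zones on either side of it on 7A had means of 20 and 16.3. In the outermost 10 Mb, 4A had 13.55 ACRs per Mb against a median of 23.85, with 2 chromosomes below it. The zone from 50 to 60 Mb was the reverse, at 18.75 ACRs per Mb on 4A against a median of 13.35, with 17 chromosomes below it. These are places in an order and carry no test.

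A ratio of the outer 20 Mb over the next 60 Mb, chosen after the values were seen, describes the same shape in 1 number. It was 0.608, 0.456, 0.546 and 0.529 on 4A (0.535 ± 0.063, SD, n = 4 lists). From the mean densities of the 4 lists the ratio was 0.538 on 4A, 0.795 on 5A and 1.77 on 7A, with a median of 1.44 over the 21 chromosomes. The value of 4A was the lowest of the 21, that of 5A the next, and 16 chromosomes had a ratio over 1, which means a denser tip.

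**Figure D2:**
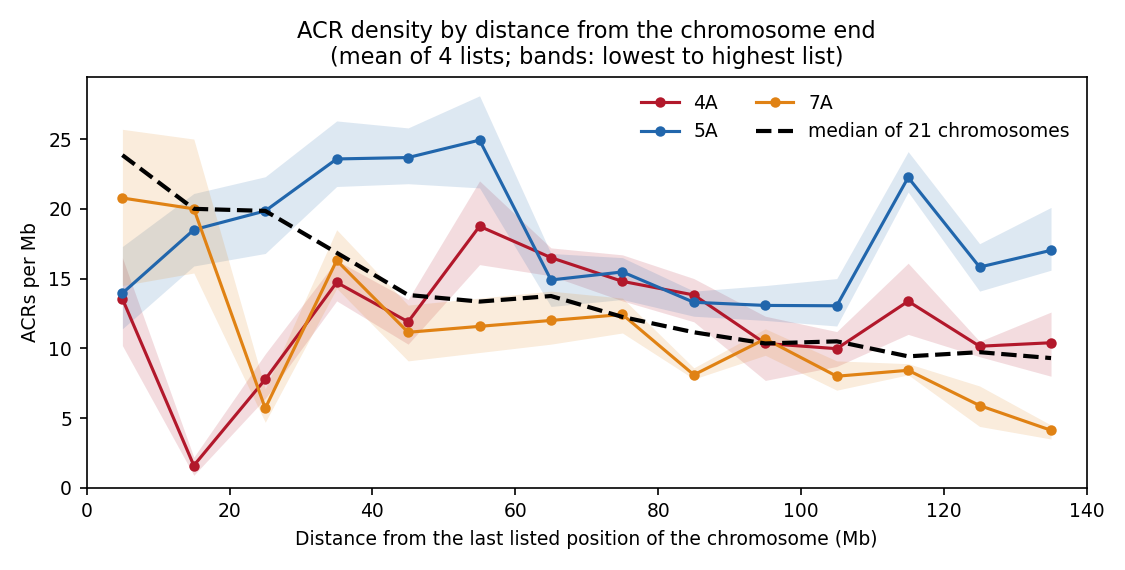
Mean ACR density of the 4 lists (ACRs per Mb, vertical axis) against the distance from the chromosome end (Mb) in 10 Mb zones, for 4A, 5A and 7A, with bands from the lowest to the highest list and the median of the 21 chromosomes as a dashed line. The 4A line touches 1.6 in the zone from 10 to 20 Mb, where the median is 20, and lies above the median at 50 to 60 Mb.

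The trough contained the longest stretch of 4A without any ACR. No list had an ACR from 728553845 to 732972986 bp, a gap of 4419 kb. In the end stretches the longest such gap was 1844 kb on 5A, 1529 kb on 7A and at most 3793 kb on the 20 chromosomes other than 4A. In the DAP5 list the gap on 4A was also 4419 kb, and in the other 3 lists it was wider, with 6760, 7304 and 7309 kb. The extra ACRs of the endosperm lists at its inner edge were few: the 7 Mb from 726 to 733 Mb held 6 loci, with 5, 3, 1 and 1 ACRs. The inner edge was a 350 bp locus of DAP5 alone (4A, 728553495 to 728553844). The outer edge was a locus of all 4 lists (4A, 732972987 to 732973793), with 650, 650, 800 and 350 bp covered in stage order. These limits of the zone were chosen after the values were seen, and the base content of the gap was not analysed here.

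At a finer grain, distal 4AL was uneven. Of its 144 windows of 1 Mb, 6 held no locus, against 45 of 600 in the rest of 4A, 1 of 145 at the end of 5A and 0 of 145 at the end of 7A. All 6 empty windows lay beyond 720 Mb, where 12 of 24 windows had under 5 loci. The same zone had the fullest window of the stretch, 739 to 740 Mb, with 61 loci and 46, 27, 28 and 36 ACRs. Its neighbour from 738 to 739 Mb had 56 loci, while 735 to 737 Mb had none. Beyond 720 Mb, 3 windows held over 40 loci, namely these neighbours and 742 to 743 Mb with 46.

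The width of an ACR is the length that passed the authors' insertion threshold. In distal 4AL the mean width was 755, 764, 645 and 553 bp, and the median was 500, 650, 500 and 474 bp. The endosperm lists had the wider ACRs and DAP20 the narrowest, and the same was the case over all chromosomes, at 756, 786, 666 and 542 bp. The mean width at DAP20 was the lowest of the 4 lists in 15 of 15 windows. ACRs over 1000 bp numbered 320, 297, 206 and 140, or 17.9, 19.5, 12.3 and 7.46% of the ACRs there. Over all chromosomes these shares were 19.3, 20.9, 14.4 and 7.62%.

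Compared with the yardsticks, ACRs of distal 4AL were narrower than those at the end of 5A, where the mean was 866, 889, 731 and 589 bp. The difference averaged -89.9 ± 39.5 bp (SD, n = 4 lists, lower in 4 of 4, exact sign-flip permutation p = 0.125, adjusted p = 0.1875). By median width the difference was smaller, at -44 bp on average, with 2 lists lower and 2 at a difference of 0 (exact permutation p = 0.5). The difference from the rest of 4A was 4.35 ± 27.6 bp (2 lists higher, 2 lower, exact permutation p = 0.875, adjusted p = 0.875), and that from the end of 7A was 8.96 ± 21.7 bp (2 higher, 2 lower, exact permutation p = 0.5, adjusted p = 0.6). Both were smaller than their spread over the lists. Among the last 145 Mb of the 21 chromosomes, 4A had the lowest mean width at DAP9 and ranked 19 from the widest at DAP5 and DAP15 and 14 at DAP20.

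The lists also differed in how the widths were stepped. Most widths were 350 bp plus a multiple of 150 bp, the size of the authors' bins. In distal 4AL, widths between these steps made up 17.9%, 2.62%, 4.61% and 38.9% of the ACRs in stage order. ACRs under 350 bp numbered 73, 8, 0 and 337. The part that these list-wide features have in the width and sharing values of DAP20 was not tested, beyond the alternative with a minimum width of 350 bp.

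**Figure D3:**
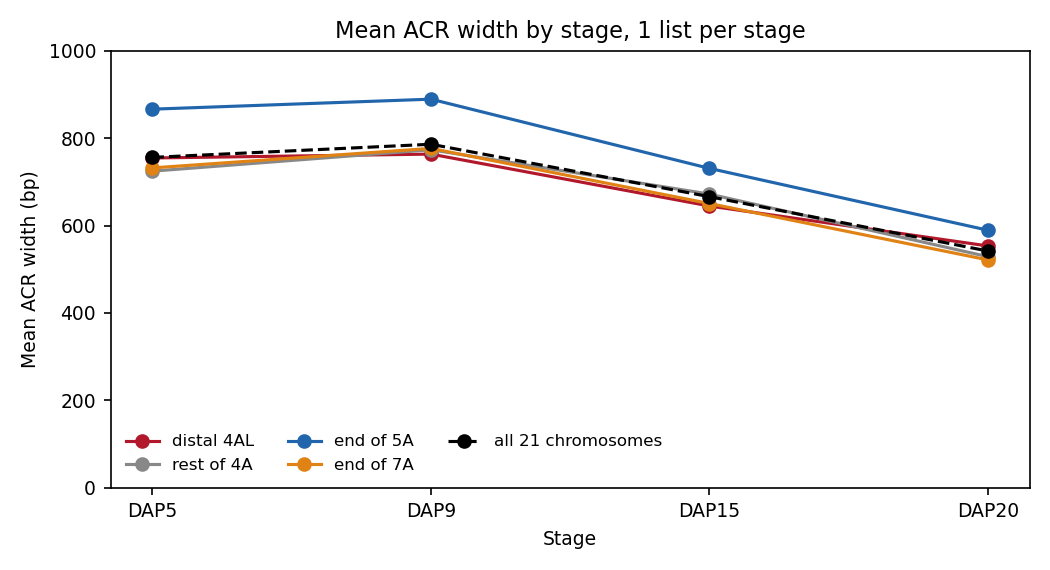
Mean ACR width (bp, vertical axis) by stage, with 1 line each for distal 4AL, the rest of 4A, the ends of 5A and 7A and all chromosomes. Distal 4AL has 755, 764, 645 and 553 bp, below the end of 5A in every list.

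To see how far the stages shared their open regions, each locus was given the lists that had an ACR in it. In distal 4AL, 659 of 3054 loci had an ACR in all 4 lists, which is 21.6% (20.2 to 23.1%), against 23.8% of all loci on the 21 chromosomes. The share was 26.4% in the rest of 4A, 27.4% at the end of 5A and 21.7% at the end of 7A. A further 434 loci were in 3 lists (14.2%), 631 in 2 (20.7%) and 1330 in 1 list (43.5%, against 40.9% over all chromosomes). Distal 4AL therefore sat near the end of 7A and below the end of 5A and the rest of its own chromosome. Among the last 145 Mb of all chromosomes it ranked 20 of 21. The lowest was 4B at 14.5%, where the density of the DAP15 list was 3.63 ACRs per Mb, the lowest of the 21.

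Loci with an ACR at 1 stage alone were most frequent at DAP20 and DAP5. Of the DAP5 loci in distal 4AL, 407 of 1726 were exclusive to that stage (23.6%, 21.6 to 25.6%), against 18.8% over all chromosomes, 13.7% in the rest of 4A, 19.0% at the end of 5A and 26.0% at the end of 7A. At DAP9, 143 of 1466 were exclusive (9.75%, 8.34 to 11.4%), against a background of 10.5%. The rest of 4A had 10.4%, the end of 5A 7.32% and the end of 7A 8.56%. At DAP15, 300 of 1567 were exclusive (19.1%, 17.3 to 21.2%), against a background of 20.8%. There the rest of 4A had 21.3%, the end of 5A 16.5% and the end of 7A 19.0%. At DAP20, 480 of 1771 were exclusive (27.1%, 25.1 to 29.2%), against 23.9% over all chromosomes, 19.6% in the rest of 4A, 26.2% at the end of 5A and 27.6% at the end of 7A. The shares at DAP9 and DAP15 thus lay near the background, and those at DAP5 and DAP20 lay above it, as they did at the end of 7A. The order of the stages depended on narrow ACRs. With ACRs of at least 350 bp only, the exclusive share was highest at DAP5 with 23.9% (396 loci). DAP20 followed with 22.0% (319 loci) and DAP15 with 21.9% (344 loci). The share over all chromosomes was not computed with this minimum width. Whether the DAP20 share stays above the background without narrow ACRs is thus not known.

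Loci shared by the 2 lists of 1 tissue and by no other list were a small group. Both endosperm lists alone held 202 loci (6.61%, 5.79 to 7.55%), against a background of 8.32%. Both seed lists alone held 171 loci (5.60%, 4.84 to 6.47%), against a background of 4.61%. These groups were thus closer in size in distal 4AL than over all chromosomes. Counted with the loci of 1 list alone, the opposite was the case: endosperm lists only held 752 loci (24.6%) and seed lists only 951 (31.1%), against 24.9% and 28.9% over all chromosomes. For both lists of a tissue alone, the shares at the end of 5A were 7.05% for endosperm and 4.34% for seed, and at the end of 7A they were 7.32% and 5.11%.

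DAP5 and DAP9 shared the most among the 6 pairs of stages, since 51.8% of their combined loci had an ACR from each (49.6 to 53.9%). This was below the 61.1% of the rest of 4A, the 61.1% of the end of 5A and the 58.2% of all chromosomes, and close to the 52.5% of the end of 7A. The share was 45.5% for DAP9 and DAP15, 45.0% for DAP15 and DAP20, 41.0% for DAP9 and DAP20, 39.2% for DAP5 and DAP15 and 37.0% for DAP5 and DAP20. Over all chromosomes the same 5 pairs shared 47.6, 45.0, 42.6, 41.5 and 38.9%. Distal 4AL was thus lower in these pairs too, except for DAP15 and DAP20, where the values were alike. The 41.5% lay above the interval of distal 4AL for DAP5 and DAP15 (37.2 to 41.2%). The 47.6% lay at the upper limit of that for DAP9 and DAP15 (43.3 to 47.6%). The pair of endosperm lists was thus the one in which distal 4AL differed most from the whole, by its counts.

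**Figure D4:**
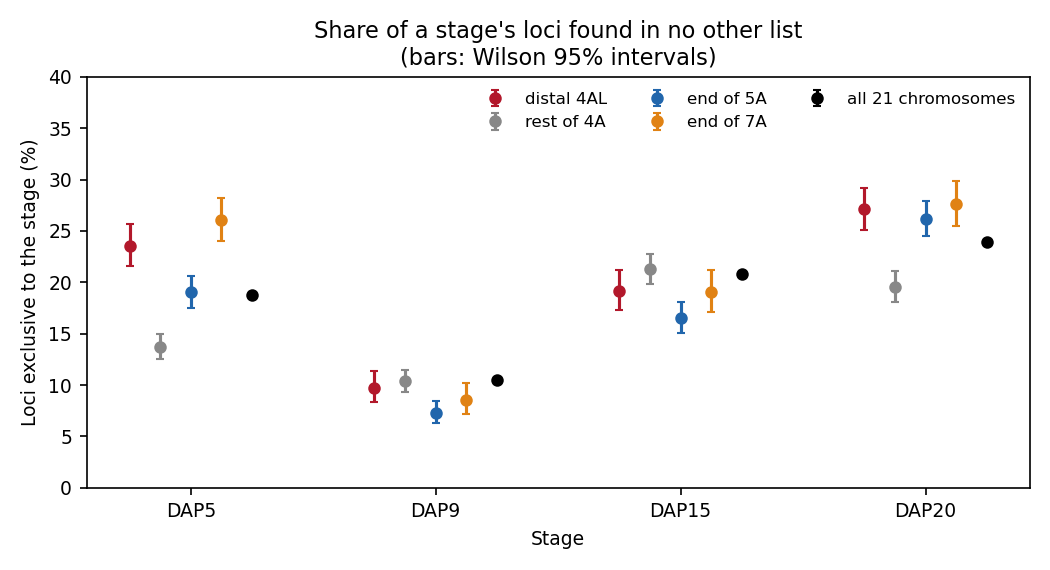
Share of the loci of each list that were exclusive to that stage (percent, vertical axis) in distal 4AL, the yardstick stretches and all chromosomes, with Wilson 95% intervals as error bars. In distal 4AL the shares are 23.6%, 9.75%, 19.1% and 27.1%.

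The share of loci in all 4 lists varied along the stretch mostly within counting error, and the share exclusive to DAP5 did so less. The share of loci in all 4 lists ran from 6.78% (4 of 59 loci, 2.67 to 16.2%) in the window from 720 to 730 Mb to 28.9% (26 of 90 loci) in the last 4.55 Mb. The interval of 14 of the 15 windows held the value of the whole stretch, and the exception was 720 to 730 Mb. The trough thus had the lowest share of constant loci of the 15 windows, but this rests on 4 loci. In the zone from 10 to 20 Mb from the chromosome end, 4 of 39 loci were constant (10.3%, 4.06 to 23.6%). That interval held the value of the whole stretch. The share of DAP5 loci exclusive to DAP5 was lowest from 630 to 640 Mb at 11.3% (6.02 to 20.0%) and highest in the trough at 44.4% (29.5 to 60.4%). Its interval left out the value of the whole stretch in 5 of 15 windows, below it in 3 and above it in 2. For each of the other stages this was so in 1 of 15 windows. DAP5 was also the most uneven stage in the yardsticks. Its interval left out their own values in 3 of 15 windows at the end of 5A and 3 of 15 at the end of 7A, against 1 or 2 for the other stages. At DAP20 the share ran from 17.0% in the last window to 42.9% in the trough. DAP9 had the lowest exclusive share of the 4 stages in 13 of 15 windows.

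**Figure D5:**
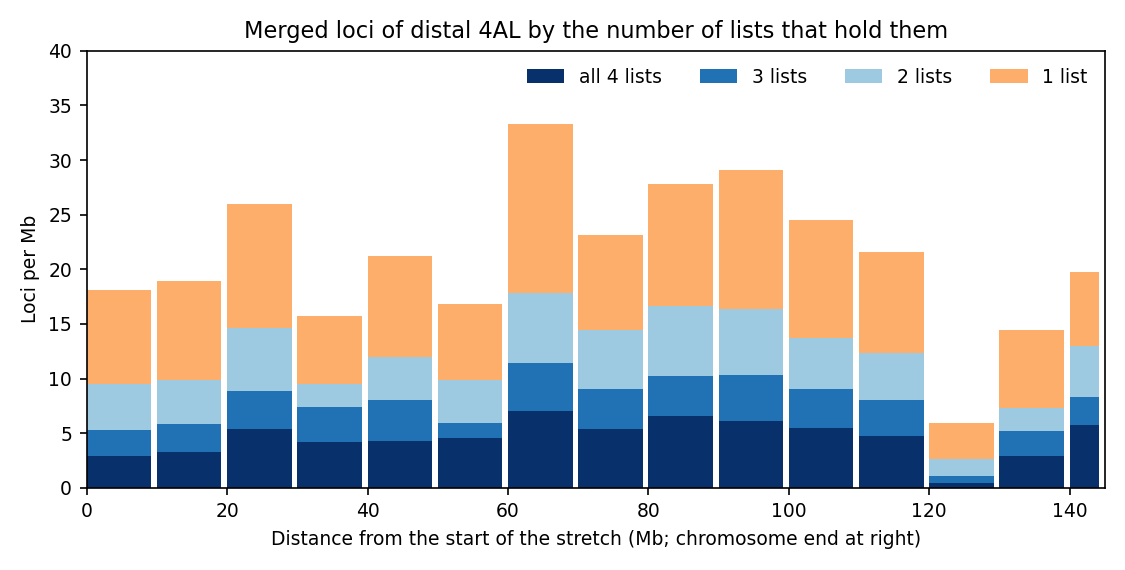
Loci per Mb (vertical axis) in 10 Mb windows of distal 4AL, against the distance in Mb from its start, with each bar split by whether the loci were in 4, 3, 2 or 1 of the lists. The shortest bar is the window from 720 to 730 Mb, with 59 loci, of which 4 were in all lists, and the tallest is 660 to 670 Mb, with 333 loci.

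The inner and the outer part of distal 4AL differed in which stages had most ACRs, by a split at 660 Mb that was chosen after the values were seen. The 60 Mb inside it held 582, 580, 662 and 742 ACRs, and the outer part held 1204, 946, 1008 and 1135. The inner part thus had 32.6% of the DAP5 ACRs of the stretch (30.5 to 34.8%), 38.01% of those of DAP9 (35.6 to 40.5%), 39.6% of those of DAP15 (37.3 to 42.0%) and 39.5% of those of DAP20 (37.3 to 41.8%). Every list was denser in the outer part, and DAP5 the most so. From the inner to the outer part the density went from 9.7 to 14.2 ACRs per Mb at DAP5 and from 9.67 to 11.2 at DAP9. It went from 11.03 to 11.9 at DAP15 and from 12.4 to 13.4 at DAP20. The inner 60 Mb held 24.6, 31.7, 31.6 and 24.5% of the ACRs at the end of 7A, where DAP5 and DAP20 were alike. At the end of 5A it held 37.5, 39.3, 38.1 and 36.8%. Window by window, DAP20 had more ACRs than DAP5 in 6 of the 6 inner windows and in 2 of the 9 outer ones. At the end of 5A the same count was 2 of 6 and 6 of 9, and at the end of 7A it was 3 of 6 and 3 of 9. DAP15 had more ACRs than DAP5 in 4 of the 6 inner and 1 of the 9 outer windows of distal 4AL, and the end of 7A had the same tilt, with 5 of 6 and 1 of 9.

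The exclusive shares of the endosperm lists differed between the parts in opposite directions. Of the DAP5 loci, 18.5% were exclusive to DAP5 in the inner part (15.5 to 22.0%) and 26.0% in the outer part (23.6 to 28.6%). Of the DAP9 loci, 12.6% were exclusive to DAP9 in the inner part (10.2 to 15.6%) and 7.92% in the outer part (6.33 to 9.88%). The end of 7A had both shifts as well, from 21.4 to 27.6% at DAP5 and from 10.4 to 7.67% at DAP9. The end of 5A had the shift at DAP9, from 9.14 to 6.16%, but not that at DAP5, which went from 20.0 to 18.5%. Loci of both seed lists alone made up 6.68% of the inner and 4.93% of the outer loci, and loci of both endosperm lists alone made up 5.48% and 7.31%. The mean ACR width was larger in the outer part in every list. It was 655, 694, 617 and 519 bp in the inner and 803, 806, 663 and 576 bp in the outer part. At the end of 5A the outer part was also wider in every list, with 832 and 887 bp at DAP5. The same was so at the end of 7A except at DAP9, which went from 791 to 770 bp. In distal 4AL the share of loci in all 4 lists was alike in both parts, at 21.2% (18.9 to 23.6%) and 21.8% (20.0 to 23.8%).

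Loci of all 4 lists were the broad ones. In distal 4AL, ACRs in such loci had a mean width of 994, 968, 821 and 692 bp, and exclusive ones of 496, 451, 427 and 424 bp. The part that width itself has in the merging of lists was not tested here, beyond the alternative with 350 bp around each midpoint. Of the 39 loci that spanned over 3000 bp, 38 were in all 4 lists (97.4%, against 89.2% over all chromosomes). Within the 659 constant loci, the median length covered was 772, 800, 650 and 650 bp. DAP20 covered less than DAP5 in 391 of them (59.3%, against 63.1% over all chromosomes), more in 192 and as much in 76. The median ratio of DAP20 over DAP5 was 0.863, against 0.815 over all chromosomes.

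The widest locus of distal 4AL with an ACR in all 4 lists lay on 4A from 705501762 to 705510811, a span of 9050 bp. It was covered over 8650, 6200, 4450 and 2679 bp. Each list thus covered less than the one before it, and the change of -5971 bp from DAP5 to DAP20 was the largest loss among the constant loci. It contained the widest ACR of the DAP5 list in the stretch, of 8000 bp (705501766 to 705509765). The widest ACR at DAP9 had 6050 bp (683615466 to 683621515), in a locus covered over 5780, 6050, 4850 and 3852 bp.

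Another locus (713113263 to 713121754) had the opposite order at its ends. It held the widest ACR of the DAP20 list, of 8300 bp (713113455 to 713121754), and was covered over 6950, 4850, 7450 and 8300 bp. At DAP20 it was 1 unbroken ACR, while DAP5 and DAP9 each had 4 ACRs there and DAP15 had 2. One of these DAP15 ACRs, of 5300 bp (713113924 to 713119223), tied as the widest of its list with another at 688095082 to 688100381, whose locus was covered over 4100, 3750, 5300 and 2853 bp. The constant locus that gained the most from DAP5 to DAP20 lay from 639195498 to 639197882, with 500, 1850, 1000 and 1856 bp. Its gain of 1356 bp was small beside the largest loss.

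Exclusive loci were narrower. The widest one of DAP5 alone had 1687 bp (4A, 707304460 to 707306146), and that of DAP20 alone had 1850 bp (701565780 to 701567629). At DAP9 the widest had 1100 bp (708581264 to 708582363) and at DAP15 it also had 1100 bp (637169625 to 637170724). The first locus of distal 4AL (600460470 to 600460969, 500 bp) and the last (744545754 to 744546403, 650 bp) were both found at DAP5 alone. The names of genes at these positions are not given, since no annotation of the build was used here.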

How the data were processed

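Each deposited file listed ACR positions in bp in 3 columns (chromosome, start and end), with no score, signal or read number. The study's methods state that the authors trimmed reads with fastp (the submitters' processing notes name Trimmomatic 0.36), aligned them with Bowtie2, sorted with SAMtools, removed duplicates with Picard, called raw peaks with MACS2, kept and merged bins of 150 bp above a minimum Tn5 density with bedtools, and removed blacklisted and organelle-like peaks. The density minimum, the genome build and any pooling of replicates are not given in the sources used here. Numbers, widths and edges of ACRs depend on these steps and on an unknown depth.

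Starts were converted to count from 1. Loci were formed across the 4 lists with an overlap of at least 1 bp. Chromosome lengths were the largest end in any list. Shares have Wilson 95% intervals, and 6 differences from yardsticks were tested by flipping signs over the 4 lists (exact permutation test, two-sided), with a threshold of 0.05. Named regions were chosen by rule: each list's widest ACR, the widest constant and exclusive loci, the largest gain and loss, the longest gaps, the fullest window, and the first and last locus, with the highest and lowest 10 Mb windows. Members and lists were chosen with earlier results of these data known. Alternatives were a minimum width of 350 bp, the 50000 widest ACRs of each list (ties broken at random with a fixed seed), starts at 590 and 610 Mb, yardsticks of 120 Mb, covered length, median width, merging within 500 bp, stricter overlaps, and totals without 4B. Merging was tested on simulated data. Scripts ran in Python 3.11.15 (scipy 1.17.1, numpy 2.4.6, matplotlib 3.10.9, pandas 2.3.3). Leaf and RNA-seq data were not analysed here.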

Additional observations from a re-analysis of the deposited data

How the results depend on the processing

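Of 146 values recomputed under alternatives, 101 kept their direction or moved by less than their interval or spread, 44 moved further and 1 reversed. The reversed value was the log2 density ratio over the end of 7A, -0.024 with the last 120 Mb as the yardstick (p = 1, exact permutation test). None of the 6 tests passed 0.05 in any setting, which the design does not allow. The ratio of the outer 20 Mb over the next 60 Mb stayed between 0.503 and 0.551 under its alternatives, which were chosen after seeing the data. By replicate number, no paired analysis was possible because a stage had only 1 list, not 1 for each replicate. For the same reason no replicate could be left out. The 6 tests were paired in another way, with distal 4AL set against a yardstick within each list.

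Where distal 4AL starts changes its length, and with it the share of each list in stage order: 1.79, 1.66, 1.73 and 1.95% from 590 Mb, and 1.56, 1.41, 1.51 and 1.69% from 610 Mb. With the 50000 widest ACRs the share of the list was 1.45% at DAP15 and 1.89% at DAP20. That setting depends on how ties in width were drawn: a second draw gave 1.52% at DAP15, inside the interval of the full list. Stricter overlaps lower sharing by construction. The share in all 4 lists was 12.4% with a reciprocal overlap of 50%, 16.6% with 350 bp around each midpoint and 16.4% with the 50000 widest. Exclusive shares, in stage order, were 34.3, 20.6, 31.7 and 39.2% with the reciprocal overlap and 27.7, 14.2, 23.7 and 30.8% with midpoints. With the 50000 widest they were 12.8, 22.5 and 35.7% at DAP9, DAP15 and DAP20, and with at least 350 bp 21.9 and 22.0% at DAP15 and DAP20. DAP5 paired with the 3 later stages, DAP9 with the 2 after it, and DAP15 with DAP20, in that order, shared 39.1, 27.6, 25.9, 32.7, 29.0 and 32.6% with the reciprocal overlap, 45.5, 33.5, 31.7, 39.3, 35.7 and 40.1% with midpoints, and 48.7, 33.7, 32.2, 38.9, 33.9 and 37.1% with the 50000 widest. For the settings by width, the cause was not tested. Unknown depth and the lack of lists per replicate limit every comparison between stages.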
